A study of Mus musculus with 4 samples.

Results

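The genes described here are 26 mouse genes for receptors of GABA and glycine, for the proteins that hold those receptors at the synapse, and for the handling of both transmitters. They form a list of gene names, and a probe belonged to it when its RefSeq accession mapped to one of the 26 symbols. That rule reads no signal, but the names were put together when results of these data were already known. The list was covered by 37 of the 56605 probes on the array: 16 genes had 1 probe, 9 had 2 and 1 had 3. A probe entered the test when the scanner called it well above background on each array of either group, which kept 30 of the 37 probes and 22 of the 26 genes, among 37516 tested probes in all. No probe of Gabre, Glra3 or Slc6a5 was well above background on any array, and the Gabrq signal was above background on 1 array only, so these 4 genes were not tested.

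GABA and glycine are the main inhibitory transmitters of the mature central nervous system. GABA-A and glycine receptors are chloride channels built of 5 subunits, whereas the GABA-B receptor is a G protein-coupled receptor made of Gabbr1 and Gabbr2. In the cerebellum, Purkinje cells and the stellate, basket and Golgi interneurons release GABA. Granule cells carry the alpha 6 and delta subunits, which form receptors outside the synapse that respond to ambient GABA and give a tonic inhibition. Derl2 codes for Derlin-2, which sits in the endoplasmic reticulum membrane and takes part in moving misfolded proteins to the cytosol for degradation.

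Cerebellum was taken from C57BL/6 mice at postnatal day 28, and total RNA was hybridised in 1 colour (Cy3) to Agilent arrays. The control group held 2 arrays of RNA from mice with floxed Derl2 on both alleles, for which the labels name no Cre. The KO group held 2 arrays of RNA from mice bred by a cross of the floxed line with mice whose Cre is driven by the nestin promoter, a driver of neural progenitor cells, so that neurons and macroglia of the whole brain, and not microglia or blood cells, are its known targets. The floxed allele is thus shared by both groups, and no Cre-only group was analysed here. Neither sex nor litter was used, and the labels do not say whether each array held a single animal, so p-values measure only the spread between these arrays. With 2 arrays against 2, an exact permutation test of a single value cannot go below a two-sided p of 0.333.

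All 4 arrays lay on 1 slide and were read in 1 scan, with the controls at neighbouring positions and the KO arrays at the next ones, so slide position and group cannot be told apart. Between 66.4% and 69.4% of the spots of an array were well above background and 0 were saturated. Derl2 itself was lower on both KO arrays: its brighter probe (A_51_P498831) read 2.13 and 2.20 in the controls against 0.81 and 0.70 in the KO mice, and the KO mean was 37.6% of the control mean. These and all following signals are log2 values above or below the 75th percentile of the same array, so a difference of 1 is 2-fold. The 10 granule cell markers and the 10 Purkinje cell markers were well above background on every array. One control array stood apart in choroid plexus RNA: the log2 summed signal of the 7 tested marker genes was 7.12 on control replicate 2 against 2.92 on control replicate 1 and 2.99 and 3.0 on the KO arrays. Control replicate 1 had 1350 spots on patches of raised local background, but no probe of the 26 genes lay on such a patch on any array.

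Across the 22 tested genes, each represented by its brightest tested probe, 18 had a lower and 4 a higher mean in the KO mice, with a median difference of -0.11 (range -1.35 to 0.21). Of all 16524 genes, 10557 had a lower and 5967 a higher KO mean, and their median was -0.064. No gene of the list passed an adjusted p of 0.05 (limma, Benjamini-Hochberg over all tested probes), and neither did any other gene on the array (0.0% called). At an unadjusted p under 0.05 there were 2 of the 22 genes, Gabra2 and Gabra3, or 9.09%, both lower in the KO mice, against 8.81% of all genes called in that way and 5.65% called lower. In 11 of the 22 genes both KO arrays lay below both control arrays, and in none did both lie above. The corresponding shares of all genes were 32.1% below and 13.8% above. None of the 22 genes combined separate groups with a 2-fold difference, which 1.08% of all genes did. Over the 30 tested probes, 16 had both KO arrays below both controls and 0 above, beside 26.9% and 22.5% of all tested probes.

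These counts move with the scale chosen between arrays. Under quantile normalization the count of genes with both KO arrays below both controls was 10, beside 25.0% of all genes below and 18.4% above. Under scaling to the bright spike-in probes it was 8, beside 19.7% below and 21.6% above, and the median of the list was -0.046 against 0.0021 for all genes. Under normexp background correction it was 13, beside 31.3% below and 13.5% above. The number with both KO arrays above both controls was 0 under each of these scales. Gabra2, Gabra3, Gabra6, Gabrb1, Gabbr1, Abat and Slc32a1 separated downward under each of the 4 scales. The share of all genes that did so was not counted, so these 7 cannot be set against it. The scales rework the same 4 arrays, so they are not independent of each other.

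**Figure D1:**
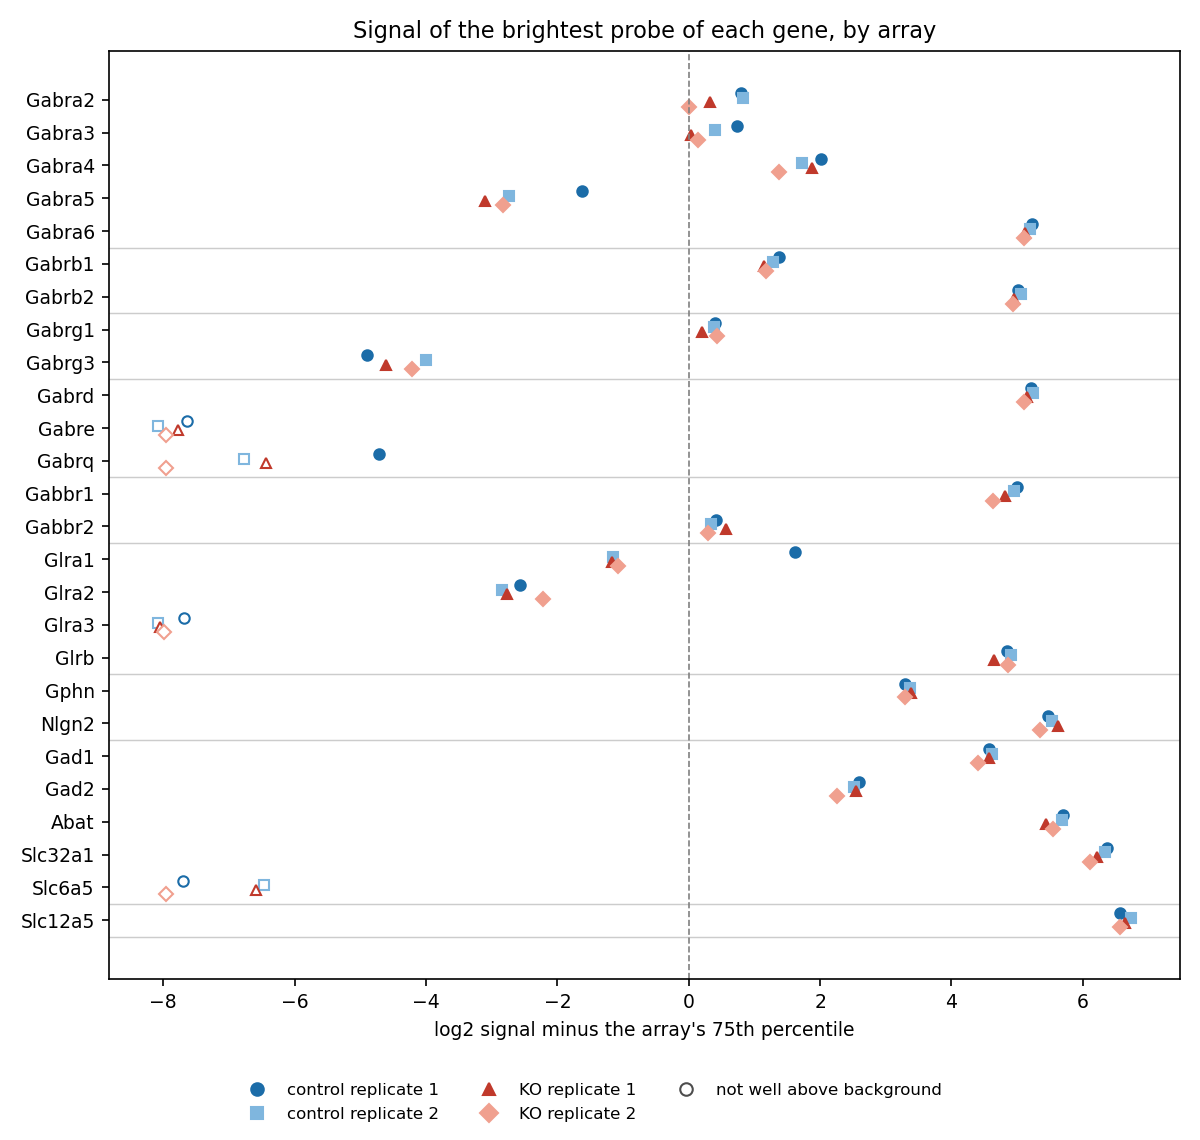
Signal of the brightest probe of each of the 26 genes on each of the 4 arrays, on the horizontal axis as log2 signal minus the array's 75th percentile (dashed line at 0); grey lines divide the functional classes, blue circles and squares are controls and red triangles and diamonds KO, and open symbols were not well above background. The 4 arrays nearly coincide for most genes, Gabre, Glra3 and Slc6a5 are open on every array, and Glra1 has 1 control array far to the right.

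The signals of different probes cannot be ranked as transcript levels, because probes differ in how brightly they label. The 3 probes of Gabrb2 showed this within 1 gene: on control replicate 1 they read 5.01, 1.07 and -1.67. What can be said is where each gene's brightest probe lay on its array. For 18 of the 22 tested genes it lay above the 75th percentile on all 4 arrays, for 3 (Gabra5, Gabrg3 and Glra2) it lay below on all 4, and Glra1 was above on 1 array and below on the other 3. All 22 brightest probes were well above background on every array.

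The alpha subunits form part of the GABA binding site and set much of a receptor's pharmacology and place in the cell. Alpha 2 and alpha 3 are known from forebrain and from developing neurons, alpha 5 from hippocampal extrasynaptic receptors, and alpha 6 from cerebellar granule cells. All 5 alpha genes had a lower KO mean, as 10557 of all 16524 genes had, with a median of -0.48. In 4 of the 5 both KO arrays lay below both controls, beside 32.1% of all genes. Under spike-in scaling the same 4 separated, beside 19.7% of all genes, and under normexp Gabra5 did not. The spread within the class was wide, from -0.10 for Gabra6 to -0.79 for Gabra5.

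Gabra2 (probe A_55_P2177351) read 0.80 and 0.83 on the control arrays against 0.32 and 0.0061 on the KO arrays. Both KO values lay below both controls, and the KO arrays differed more from each other than the controls did. The group means were 0.81 ± 0.022 and 0.17 ± 0.23 (SD, n = 2 each), a log2 difference of -0.65 (SE 0.15), which puts the KO mean at 63.9% of control. The limma p was 0.0093 before and 0.273 after adjustment over all tested probes. Over 16 alternatives in processing the difference ran from -0.80 to -0.49 and the adjusted p from 0.150 to 0.613.

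Gabra3 (probe A_55_P1963463) read 0.73 and 0.39 in the controls against 0.031 and 0.14 in the KO mice. Here the controls were the more scattered pair, and the groups again did not overlap. The difference was -0.48 (SE 0.15; unadjusted p 0.033, adjusted p 0.328 with limma), or 71.9% of control. It lay between -0.64 and -0.31 over the alternatives, with -0.31 reached without control replicate 1. The second Gabra3 probe was not well above background on any array.

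Markers of forebrain neurons were read beside these 2 genes. Of the 3 that are reported, from a longer list, 2 were tested; both had both KO arrays below both controls, as 32.1% of all genes had, and neither passed the adjusted test. Neurod6 read -2.21 and -2.27 in the controls against -2.58 and -2.74 in the KO mice, a difference of -0.42 (SE 0.11; adjusted p 0.291). Tbr1 read -2.36 and -1.93 in the controls against -2.64 and -2.43 in the KO mice, a difference of -0.39 (SE 0.19; adjusted p 0.434). The log2 summed signal of the pair was -1.28 and -1.09 in the controls and -1.61 and -1.58 on the KO arrays. Emx1, the remaining marker, was not well above background on any array. Tbr1 is also known from neurons of the developing cerebellar nuclei. Forebrain markers were not the only list with a median below 0. It was -0.14 for cerebellar inhibitory interneurons, -0.11 for astrocytes and Bergmann glia, -0.031 for Purkinje cells and -0.023 for granule cells, beside -0.064 for all genes. The part of RNA from any of these cells in the Gabra2 and Gabra3 values was not tested. In whole tissue, fewer cells of a type and less RNA per cell cannot be told apart, which applies to every difference given here.

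Gabra5 (probe A_55_P2806920) read -1.63 and -2.73 in the controls against -3.10 and -2.83 in the KO mice. The groups did not overlap, but the gap between the lower control and the higher KO array was small beside the distance between the 2 controls. The difference was -0.79 (SE 0.40; adjusted p 0.445), and without control replicate 1 it was -0.23. The second Gabra5 probe, which is dimmer and was not above background on KO replicate 1, gave -0.57 (SE 0.31; adjusted p 0.460) with the same array highest. Under normexp background correction the Gabra5 groups overlapped.

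Gabra6 (probe A_51_P198335), the granule cell subunit, read 5.23 and 5.19 in the controls against 5.12 and 5.10 in the KO mice. The 4 values were close to each other and did not overlap between groups. The difference was -0.10 (SE 0.098; adjusted p 0.655), or 93.2% of control. For Gabra6 the difference shrank to -0.036 under quantile normalization and -0.035 under spike-in scaling. Gabra4, which in forebrain pairs with delta in extrasynaptic receptors, read 2.01, 1.72, 1.88 and 1.38 in the same order of arrays. Its groups overlapped, the difference was -0.24 (SE 0.22; adjusted p 0.644), and without KO replicate 2 it was 0.015.

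The stretches before the annotated start of Gabra2 and Gabra3, the 2 genes with the smallest p, and of Gabra6, whose groups lay closest among the alpha genes, are printed for reference. Each is the RefSeq sequence of the 250 bases upstream of the start on the gene's own strand, in build GRCm38.p6, at chr5:71095850-71096099 for Gabra2, chrX:72656920-72657169 for Gabra3 and chr11:42321073-42321322 for Gabra6, all on the minus strand. Gabra3 has 2 such windows in the RefSeq table, and the one farther upstream is shown. Capitals mark TTGGC or its reverse complement GCCAA, the half-site of nuclear factor I, a family of factors known in granule cell maturation.
Gabra2: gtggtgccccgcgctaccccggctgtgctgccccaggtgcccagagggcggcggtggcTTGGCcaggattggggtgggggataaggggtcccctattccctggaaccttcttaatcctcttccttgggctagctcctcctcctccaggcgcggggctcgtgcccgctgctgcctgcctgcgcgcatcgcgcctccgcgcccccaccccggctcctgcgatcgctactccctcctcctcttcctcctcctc
Gabra3: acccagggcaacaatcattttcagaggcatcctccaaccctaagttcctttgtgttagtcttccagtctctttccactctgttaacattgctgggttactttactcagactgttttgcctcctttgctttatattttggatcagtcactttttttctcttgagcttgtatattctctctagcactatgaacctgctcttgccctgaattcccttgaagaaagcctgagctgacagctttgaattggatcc
Gabra6: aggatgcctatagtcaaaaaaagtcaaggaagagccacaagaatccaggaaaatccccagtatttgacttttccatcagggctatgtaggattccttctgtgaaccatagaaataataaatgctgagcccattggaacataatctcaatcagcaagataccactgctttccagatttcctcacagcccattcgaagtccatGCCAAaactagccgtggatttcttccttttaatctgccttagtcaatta
The 3 windows differ in composition. The Gabra2 window is 70% G and C with 18 CG dinucleotides, the Gabra3 window 42.4% with 0, and the Gabra6 window 40.8% with 2; the median over all 32851 windows was 6. The half-site occurred 1 time in the Gabra2 window, 1 time in that of Gabra6 and 0 times in that of Gabra3. It is a short motif that 41.5% of all windows hold on one strand or the other. Of the 23 listed genes with such windows, 13 hold it in at least 1 of their windows. That count is by gene, and the 23 genes have 29 windows, so it cannot be set against the share of windows. A match is a description of letters only.

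The beta subunits complete the GABA binding site and carry the contacts for trafficking. Gabrb1 (probe A_51_P368757) read 1.37 and 1.28 in the controls against 1.15 and 1.18 in the KO mice, a difference of -0.16 (SE 0.10; adjusted p 0.527). Gabrb2, a major beta subunit of granule cells, read 5.01, 5.06, 4.94 and 4.93 on its brightest probe, a difference of -0.10 (SE 0.098; adjusted p 0.659). Both genes separated downward on these probes. The other 2 Gabrb2 probes did not separate and gave 0.00081 and -0.058, so the probes of this gene do not share a difference beyond their errors.

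Gabrd, the delta subunit of the extrasynaptic granule cell receptor, followed Gabra6 closely in size. Its probe (A_51_P149623) read 5.21 and 5.24 in the controls against 5.15 and 5.10 in the KO mice. The difference was -0.10 (SE 0.099; adjusted p 0.655), 93.2% of control, with no overlap between the groups. The Gabrd difference shrank to -0.034 under quantile normalization and -0.036 under spike-in scaling. Under spike-in scaling neither Gabrd nor Gabrb2 separated, while Gabra6 still did. Of the 10 granule cell markers, 2 separated downward and 1 upward (32.1% and 13.8% of all genes), with a median of -0.023. The upward one was Cadps2, whose brightest probe lay on a patch of raised background on 1 array. It read 4.54 on control replicate 1 against 5.14, 5.20 and 5.14. A dimmer Cadps2 probe off the patches also separated upward, at 0.27, and another, on a patch, overlapped.

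The gamma subunits anchor receptors at the synapse and shape the response to benzodiazepines. Gabrg1, known from glia and some nuclei, read 0.40, 0.39, 0.21 and 0.43, and its difference of -0.074 (SE 0.12) lay within the spread of the arrays. Gabrg3 was dim, at -4.90 and -4.00 in the controls against -4.61 and -4.21 in the KO mice, and its difference of 0.041 had an SE of 0.35. Neither gene separated the groups.

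Epsilon (Gabre) and theta (Gabrq) are subunits of brainstem and hypothalamic neurons. Gabre read between -8.08 and -7.64 on the 4 arrays, all not well above background; the dimmest probes called above background read between -6.16 and -5.69. Gabrq (probe A_66_P110675) read -4.71 on control replicate 1, where it was above background, and -6.77, -6.43 and -7.96 on the other 3 arrays, where it was not. Its other probe was not above background on any array.

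Several of these subunit genes sit side by side. In RefSeq gene order Gabra6 neighbours Gabrb2 with no protein-coding gene between them, as do Gabrg1 and Gabra2, Gabra4 and Gabrb1, Gabrg3 and Gabra5, and Gabra3 and Gabrq. Within these pairs the sizes of difference varied. Gabra2 stood at -0.65 and its neighbour Gabrg1 at -0.074, and Gabra5 stood at -0.79 and Gabrg3 at 0.041. Gabra6 and Gabrb2 both stood at -0.10, and Gabra4 (-0.24) and Gabrb1 (-0.16) lay within their errors of each other. The differences between neighbours were not tested.

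Gabbr1 binds GABA in the GABA-B receptor, and Gabbr2 couples it to the G protein. Gabbr1 (probe A_52_P16232) read 5.0 and 4.95 in the controls against 4.81 and 4.63 in the KO mice. Both KO arrays lay below both controls, and the difference was -0.25 (SE 0.12; adjusted p 0.410), or 83.8% of control. Its second probe separated in the same direction, at -0.19 (SE 0.11; adjusted p 0.484). Gabbr2 read 0.42, 0.34, 0.57 and 0.29, and its difference of 0.054 (SE 0.14) was within the spread. Of the 4 auxiliary KCTD genes, which set the kinetics of the GABA-B response, Kctd12 separated downward, at -0.26 (SE 0.13; adjusted p 0.435).

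**Figure D2:**
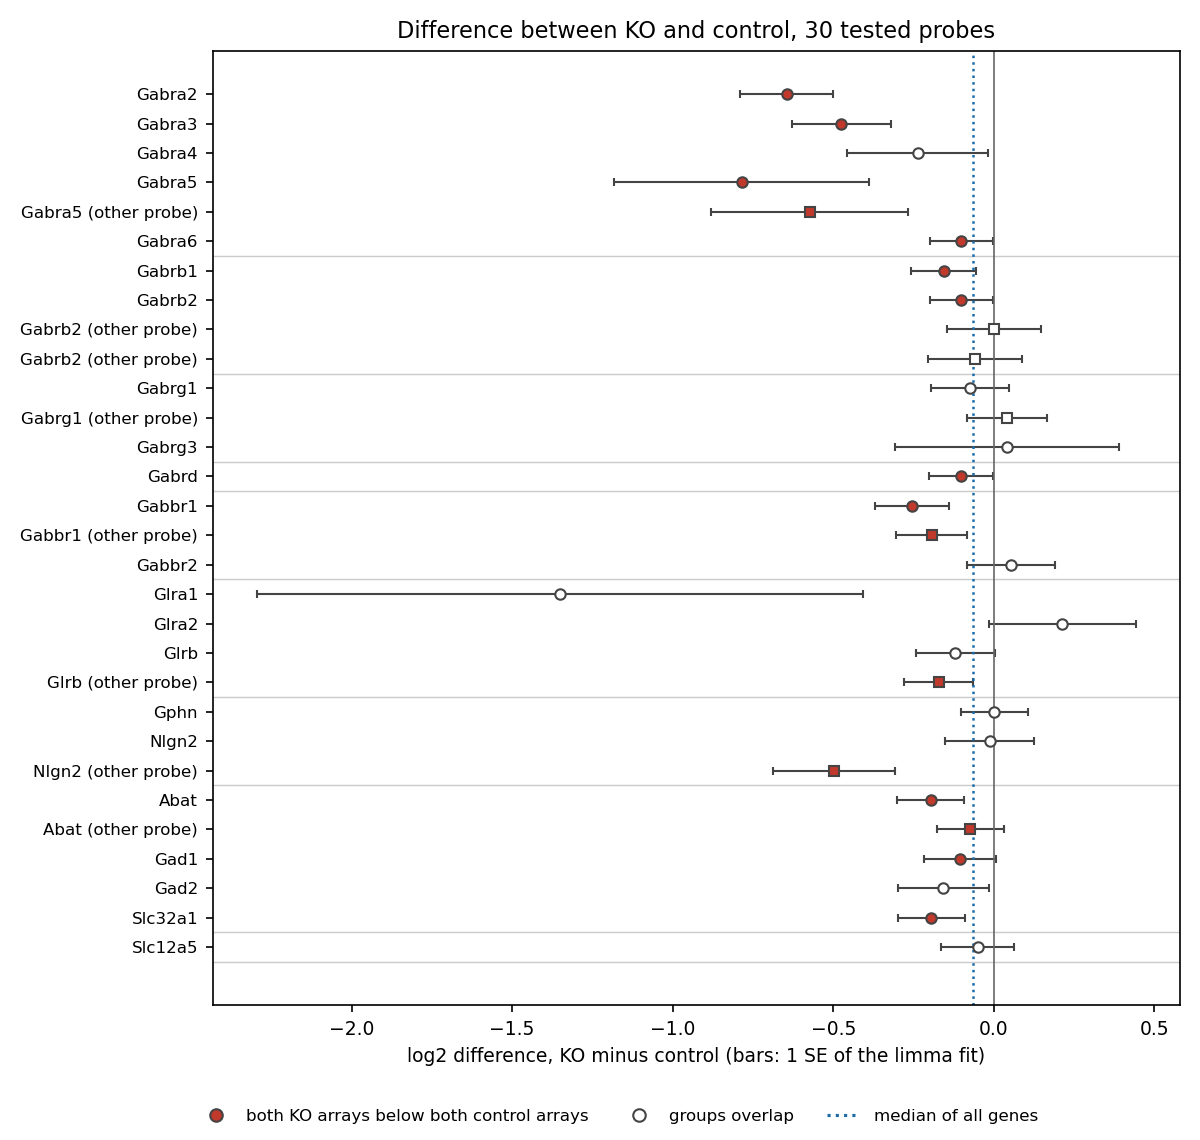
Log2 difference, KO minus control, of the 30 tested probes of the 26 genes; bars are 1 SE of the limma fit, circles are the brightest probe of a gene and squares its other probes, filled symbols have both KO arrays below both controls, and the dotted line is the median of all genes (-0.064). 16 of the 30 probes are filled, all to the left of 0, and the bar of Glra1 is the widest, with an SE of 0.94.

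Glycine receptors are built of alpha subunits with the beta subunit Glrb, which binds the scaffold protein gephyrin. None of the 3 tested genes separated the groups. Glrb read 4.84, 4.90, 4.65 and 4.86, a difference of -0.12 (SE 0.12; adjusted p 0.675), and its dimmer probe gave -0.17 (SE 0.11) with separate groups. Glra2, the subunit of immature neurons, read -2.57, -2.84, -2.77 and -2.22, a difference of 0.21 (SE 0.23; adjusted p 0.688). Glra3 read between -8.07 and -7.69, not well above background on any array.

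Glra1, the adult subunit of spinal cord and brainstem, had the lowest mean difference of the 22 genes, and 1 array carried it. Its brighter probe (A_66_P122139) read 1.61 on control replicate 1 and -1.16, -1.17 and -1.08 on control replicate 2 and the KO arrays. The difference was -1.35 with an SE of 0.94 (adjusted p 0.549), and the groups overlapped. Without control replicate 1 the difference was 0.035 (adjusted p 0.975). Without control replicate 2 it was -2.74 (adjusted p 0.0345), a fit in which the lone control array was assumed to vary like the KO arrays. The second Glra1 probe was highest on the same array, at -5.66 against -8.21, -8.26 and -7.21, but was not above background on any.

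Other genes were high on control replicate 1 alone. After these values were seen, probes were counted that were well above background on 1 array, off any raised patch, and more than 1 log2 unit above the other 3 arrays. There were 95 on control replicate 1 and between 103 and 191 on each other array. Probes of 3 listed genes (Glra1, Gabra5 and Gabrq) were among the 95, and 0 were among those of the other arrays. Of 11 caudal hindbrain Hox genes, 4 were well above background on control replicate 1 and 1 (Hoxb3) on each other array. Hoxa3 read -4.31 on control replicate 1 against -7.08, -7.66 and -7.42, and Hoxb2 read -4.87 against -7.47, -8.29 and -7.31. Hoxa2 read -5.50 against -6.09, -6.24 and -6.52, close to the dimmest probe called above background on control replicate 1 (-5.69). The local background of its spot there was 1.34 times the array's median. Hoxb3 was level, at -3.18, -3.27, -3.31 and -3.18. The remaining Hox genes were above background on no array. The local background of the Glra1 spot on control replicate 1 was 1.0 times the array's median. The part of hindbrain RNA in the Glra1, Gabra5 and Gabrq values was not tested.

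**Figure D3:**
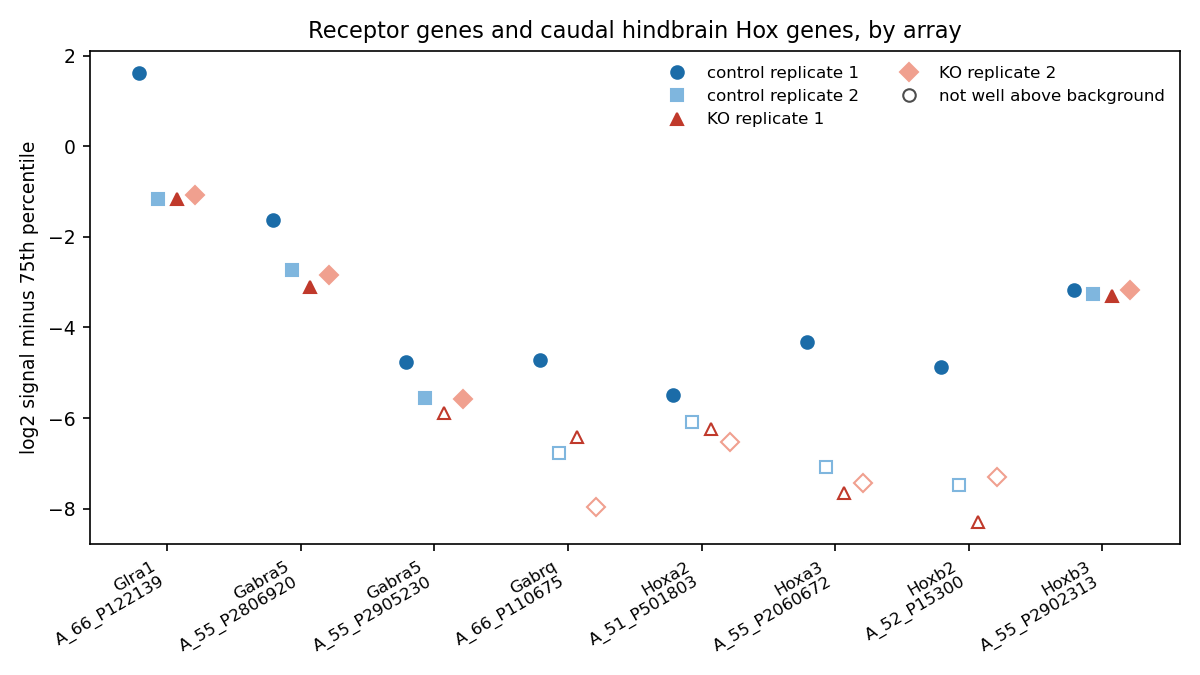
Log2 signal minus the array's 75th percentile of probes of Glra1, Gabra5 and Gabrq and of the 4 caudal hindbrain Hox genes detected on control replicate 1, by array; open symbols were not well above background. Control replicate 1 is the highest symbol for the receptor probes and for Hoxa2, Hoxa3 and Hoxb2, while Hoxb3 is level on the 4 arrays.

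Gephyrin (Gphn) clusters glycine and GABA-A receptors beneath the membrane, and neuroligin 2 (Nlgn2) is the adhesion protein of inhibitory synapses. Gphn read 3.30, 3.37, 3.38 and 3.29, with a difference of 0.0020 (SE 0.10), and its sign was negative after scaling to the median of detected probes and after normexp. The brighter Nlgn2 probe read 5.46, 5.53, 5.63 and 5.34, a difference of -0.013 (SE 0.14) whose sign was positive under quantile, spike-in and normexp scaling. The dimmer Nlgn2 probe disagreed: it read -3.58 and -3.23 in the controls against -3.74 and -4.07 in the KO mice, with separate groups and a difference of -0.50 (SE 0.19; unadjusted p 0.054, adjusted p 0.363).

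GABA is made from glutamate by the decarboxylases Gad1 and Gad2, packed into vesicles by Slc32a1, which also carries glycine, and broken down by the transaminase Abat. The 4 genes all had a lower KO mean, as 10557 of all 16524 genes had, with a median of -0.18. In 3 of them both KO arrays lay below both controls, beside 32.1% of all genes. Slc32a1 (probe A_52_P138926) read 6.37 and 6.34 in the controls against 6.21 and 6.11 in the KO mice, a difference of -0.19 (SE 0.10; adjusted p 0.459) or 87.4% of control. Abat (probe A_55_P2015495) read 5.70 and 5.68 in the controls against 5.44 and 5.55 in the KO mice, a difference of -0.20 (SE 0.10; adjusted p 0.459) or 87.3% of control. The second Abat probe also separated, at -0.073 (SE 0.10).

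Gad1 read 4.57 and 4.61 in the controls against 4.57 and 4.40 in the KO mice, a difference of -0.10 (SE 0.11; adjusted p 0.688). Its groups touched at 4.57, and they overlapped under quantile and spike-in scaling. Gad2 read 2.59, 2.52, 2.55 and 2.25, a difference of -0.16 (SE 0.14; adjusted p 0.635), with overlapping groups. For both decarboxylases KO replicate 2 was the low array. Cerebellar inhibitory interneurons hold much of this machinery. Of their 8 markers, 4 separated downward and 0 upward (32.1% and 13.8% of all genes), 4 overlapped, and none passed the adjusted test (lowest adjusted p 0.417, limma). Their median was -0.14, with Lgi2 at 0.093 and Pax2 at 0.0074, and the log2 summed signal was 4.62 and 4.54 in the controls against 4.49 and 4.31 in the KO mice. Purkinje cell markers, from the other GABA neurons, had a median of -0.031 with 3 separating downward and 2 upward. The part of cell numbers in the Gad1, Slc32a1 and Abat values was not tested.

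Slc6a5 (GlyT2), the glycine transporter of glycinergic terminals such as those of Golgi cells, read -7.70 and -6.47 in the controls against -6.59 and -7.95 in the KO mice, with no array well above background. Its probe therefore gives only a bound. Slc12a5 (KCC2), which extrudes chloride and so keeps the GABA-A current inhibitory in mature neurons, read 6.57, 6.73, 6.64 and 6.56. The difference was -0.051 (SE 0.11; adjusted p 0.856), within the spread of the arrays, and its sign was positive under quantile and spike-in scaling.

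A wider list of 32 related genes covered other subunits, transporters, enzymes, auxiliary subunits and synaptic organisers. Of its 29 tested genes, 24 had a lower and 5 a higher KO mean, with a median of -0.14 (range -0.46 to 0.16). Over all 16524 genes, 10557 had a lower KO mean. In 12 of the 29 both KO arrays lay below both controls and in 3 above, that is 41.4% and 10.3% against 32.1% and 13.8% of all genes. None of the 29 passed the adjusted test, and 2 had an unadjusted p under 0.05, or 6.90% against 8.81% of all genes. Both were lower in the KO mice. Insyn2a, an interactor of gephyrin at inhibitory synapses, read -2.04 and -2.23 in the controls against -2.59 and -2.60 in the KO mice, a difference of -0.46 (SE 0.12; adjusted p 0.284). Slc6a9 (GlyT1), the glial glycine transporter, read 5.56 and 5.61 in the controls against 5.33 and 5.17 in the KO mice, a difference of -0.33 (SE 0.11; adjusted p 0.334). Gabrr2, a rho subunit, and Shisa7, an auxiliary subunit of GABA-A receptors, followed at -0.26 (adjusted p 0.370) and -0.25 (adjusted p 0.399).

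**Figure D4:**
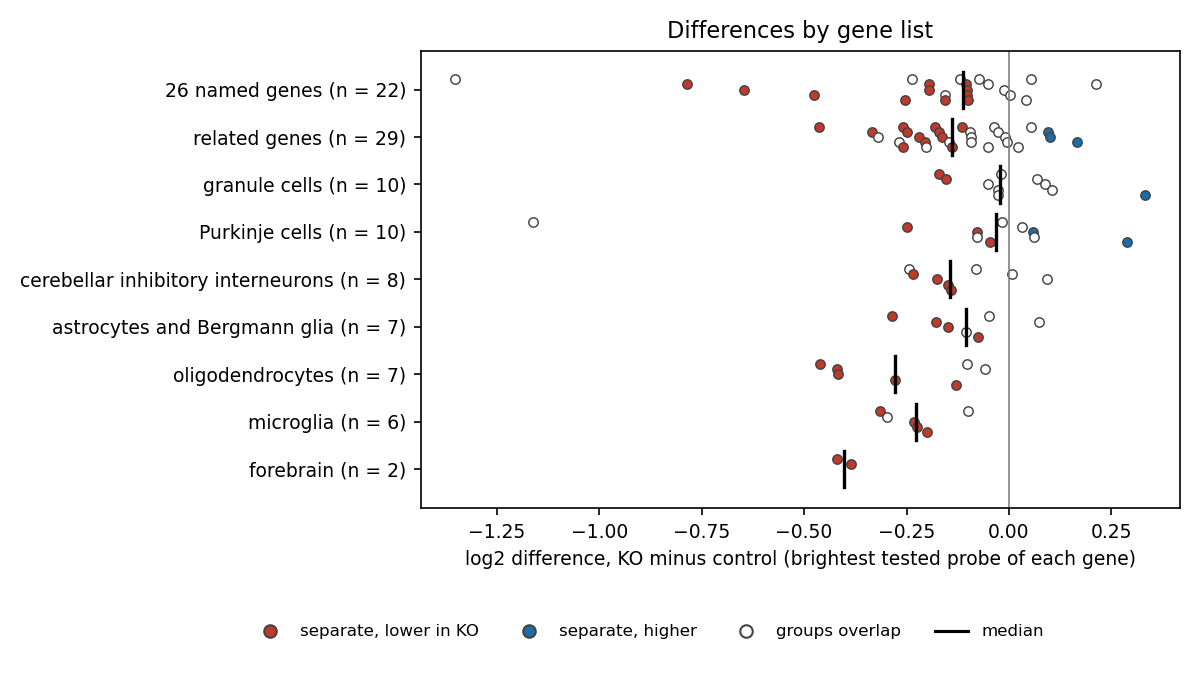
Log2 differences, KO minus control, of the brightest tested probe of each gene in the list of 26 (22 tested), in the related genes (29 tested) and in 7 marker lists; red points have both KO arrays below both controls, blue points both above, white points overlap, and black bars are medians. The medians are -0.11 for the 26 genes, -0.14 for the related genes, -0.28 for oligodendrocyte markers and -0.40 for the 2 forebrain markers, and near 0 for granule and Purkinje cell markers; choroid plexus and red blood cell lists are not drawn.

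Glial lists had medians below the -0.064 of all genes. Oligodendrocyte markers had a median of -0.28, with 5 of 7 genes separating downward, microglial markers -0.23 with 4 of 6, and astrocyte and Bergmann glia markers -0.11 with 4 of 7. On the brightest probes none of these 3 lists had a gene that separated upward. Over all genes 32.1% separated downward and 13.8% upward on the same scale. The probes of Mbp disagreed: the brightest gave -0.10 with overlapping groups, and the dimmer ones separated downward at -0.37 and upward at 0.095. Under spike-in scaling, for which the glial lists were not counted, the share of all genes was 19.7%. The median of the 26 genes, -0.11, thus lay below those of granule and Purkinje cells and above those of oligodendrocytes and microglia. It was near that of astrocytes and Bergmann glia. The lists do not order neurons above glia, as markers of inhibitory interneurons, also neurons, had a median of -0.14. The differences between lists were not tested.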

How the data were processed

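Total RNA from cerebellum was labelled with Cy3 from 150 ng and hybridised in 1 colour to 4 Agilent arrays (per the labels' protocols). The deposited scanner files hold processed signals, an intensity on a linear scale with the background already corrected by Feature Extraction, version 12.1.1.1 per the file headers and 10.7.1.1 per the submitters' processing notes. Other deposited columns are flags for control, saturated, outlier and well-above-background spots. The deposited series table holds log2 values. Differences between its columns equalled those of the scaled scanner values within 0.01 for 100% of 35661 probes, so its scale is log2 after a 75th percentile shift; the value each probe was centred on stays unknown, and its column medians were 0.0071, -0.19, -0.16 and -0.22. It served as an alternative, and 0 columns of per-sample values were unused.

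From the scanner files, the mean log2 signal of each probe's spots was taken without control spots and without outlier-flagged ones, and the array's 75th percentile (9.64 and 9.62 in the controls, 9.57 and 9.50 in the KO arrays) was subtracted. Probes called well above background on each array of either group were kept (37516 of 56605) and fitted with lmFit and eBayes in limma 3.58.1 (R 4.3.3), KO against control with no covariates and 4.35 total degrees of freedom; the fit was tested on simulated data. P-values were adjusted over all kept probes. Separate groups means both KO arrays on one side of both controls. Groups and replicate numbers came from the sample titles. Of 35886 probes with a RefSeq accession, 32994 (91.9%) were named, without versions, through a RefSeq gene table of GRCm38.p6, the build of the promoter windows. A gene's brightest tested probe stands for it.

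The members, the related genes and the marker lists were chosen with earlier results of these data known; 2 forebrain markers of the list are not reported here. All 26 members are named; of the related genes, up to 5 with separate groups and the smallest p. Array number limits the precision. The replicate numbers were checked as pairs: the correlation of deviations was 0.124 over 37516 probes for the 2 pairs, too few to call them paired. Alternatives covered scaling, background, filters, variance model, probe summary and leaving out each array.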

Additional observations from a re-analysis of the deposited data

How the results depend on the processing

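None of the alternatives to the processing moved a listed gene past the adjusted threshold of 0.05 except for Glra1 without control replicate 2. Of 352 values of the 22 genes under 16 alternatives, 331 kept direction and call, 1 gained the call and 20, over 9 genes, changed sign; 13 genes, among them Gabra2, Gabra3, Gabbr1, Abat and Slc32a1, never did. The cause of the sign changes was not tested. Quantile normalization gave 0.060 for Nlgn2, 0.011 for Slc12a5 and 1 probe with an adjusted p under 0.05. Spike-in scaling gave 0.053 for Nlgn2, 0.015 for Slc12a5, 1 such probe, and 6448 probes with separate groups lower in KO (10086 as reported). Scaling to the median of detected probes gave -0.0031 for Gphn and 1 such probe. Normexp gave -0.034 for Gabrg3, -0.044 for Gphn, 0.032 for Nlgn2, 2 such probes, and 84 probes with separate groups and a 2-fold difference (441 as reported). That last count was 1239 with no filter, 233 for probes detected on all 4 arrays and 2190 at a 1.5-fold limit. Leaving out patch spots gave 1 probe with an adjusted p under 0.05, and an intensity trend with robust variances gave 4 and took Derl2 (-1.41) to an adjusted p of 0.0166; against these, 5265 probes had an unadjusted p under 0.05 in the reported limma fit.

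Leaving out 1 array, with the lone array of a group assumed to vary like the others, gave -0.49 to 0.015 for Gabra4, -0.18 to 0.037 for Gabrg1, -0.41 to 0.49 for Gabrg3, -0.087 to 0.19 for Gabbr2, -2.74 to 0.035 for Glra1, -0.062 to 0.49 for Glra2, -0.043 to 0.047 for Gphn, -0.15 to 0.13 for Nlgn2 and -0.13 to 0.030 for Slc12a5. The count of listed genes with separate groups ran from 14 to 17 lower (17 without KO replicate 1) and from 1 to 3 higher (3 without KO replicate 2), since fewer arrays separate more easily. Over all probes the ranges were 14273 to 16409 lower, 12134 to 13859 higher, 565 to 890 with a 2-fold difference, and 0 to 98 with an adjusted p under 0.05, the 890 and the 98 without control replicate 2. Between 37516 and 37531 probes were tested in the fits without 1 array, and 22 listed genes. The share of all genes with separate groups was not counted for these fits, so the counts of listed genes cannot be set against it. With the replicate block Gabra2 stood at -0.65 (adjusted p 0.272), and the block changed no call. Dim probes (Gabre, Gabrq, Glra3, Slc6a5) allow no statement on the groups.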

Other observations

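The promoter windows of the listed genes were also searched for 2 motifs of the unfolded protein response, of which Derl2 is a known target gene. The motif CCAAT, 9 bases of any kind and CCACG, the endoplasmic reticulum stress response element, was in 0 of the 23 listed genes found in the table and in 0.113% of all 32851 windows, both strands searched; the window of the chaperone gene Hspa5 held it. TGACGTGG, the unfolded protein response element, was likewise in 0 of 23 genes and in 0.563% of windows, and the Hspa5 window did not hold it. The counts are by gene and the shares by window, so they cannot be set against each other. With motifs this rare and 29 windows, a count of 0 says little about the listed genes. The number of CG dinucleotides in these windows ran from 0 in Gabra3 to 37 in Gabbr2, with 34 in Gphn, and 7.87% of all windows had 0.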
